A study of Mus musculus with 15 samples.

Results

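The 78 protein-coding genes whose symbols start with Mrpl or Mrps and a digit, the genes for the protein parts of the mitochondrial ribosome, were compared between CD8+ T cells primed with antigen alone and with antigen plus costimulation. They were taken by symbol and gene type from the 55536 annotated genes of the count table, which left out 5 pseudogenes with such symbols. Of the 78, 51 belong to the large subunit and 26 to the small subunit, and the last, Mrps36, is now known as a subunit of the 2-oxoglutarate dehydrogenase complex. By the current names of these proteins, 30 of the large subunit and 16 of the small subunit have a bacterial homologue, and the other 21 and 10 are specific to mitochondria. Despite their symbols, Mrps18a and Mrps30 are proteins of the large subunit and were counted there. The genes lie on 17 chromosomes.

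Both groups held OT-I T cells, which carry a transgenic T cell receptor for the ovalbumin peptide SIINFEKL, adoptively transferred into C57BL/6J mice and sorted from spleen and lymph nodes as CD8+ donor cells with that receptor. Ag mice received the peptide and a control rat IgG. Ag+Costim mice received the peptide with agonist antibodies to the costimulatory receptors CD134 (OX40) and CD137 (4-1BB). Each group had 5 libraries, collected on day 4 per the labels, while the methods give a slightly shorter interval. One receptor specificity is a narrow model of a T cell response, and neither group lacked antigen, so that the comparison is of the costimulating antibodies on top of antigen. Naive OT-I cells also belong to the study and were not analysed here.

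The cells carried the transcripts of their lineage, with Cd8a at 345 to 678 CPM (counts scaled to a library of 1000000) in Ag and 476 to 616 CPM in Ag+Costim and Cd4 at no more than 5.06 CPM in any library. The Ag libraries stood apart from each other before any member was considered. Estimated counts per library, in units of 1000000, were 59.6 to 449 in Ag and 332 to 639 in Ag+Costim, and genes with a count numbered 20714 to 51778 in Ag against 28727 to 30340 in Ag+Costim. All 4 B cell markers, 5 erythroid markers and 5 myeloid markers of the fixed lists passed the filter on low counts. Their summed levels were 642 to 1141 and 512 to 758 CPM (B cell, mostly Ighm), 14.7 to 1099 and 3.79 to 39.3 CPM (erythroid), and 33.6 to 105 and 63.7 to 141 CPM (myeloid) in Ag and Ag+Costim, and no marker of these lists was at 0 in both groups. The common dispersion, edgeR's measure of spread beyond counting error, was 1.49 within Ag and 0.341 within Ag+Costim.

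Mitochondria keep a ribosome of their own, which translates the few messages encoded by mitochondrial DNA, all of them subunits of the respiratory chain and the ATP synthase. Its RNAs come from mitochondrial DNA (mt-Rnr1 in the small subunit, mt-Rnr2 in the large), whereas every protein is made in the cytosol from a nuclear gene and imported, so that many nuclear genes have to be used together. Activated T cells are known to enlarge their mitochondria and raise mitochondrial translation as they leave rest and divide. Nuclear genes of mitochondrial proteins often carry sites for NRF1 (nuclear respiratory factor 1), for ETS proteins such as GABP (nuclear respiratory factor 2) and for YY1 near their start.

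The starts of the member genes are shown for the letters they share. RefSeq promoters on the build GRCm38.p6, from 250 bases before to 50 bases after each start, were at hand for 69 of the 78 members (75 promoters). Of these 75, 34.7% held the ETS core CCGGAAG, 16.0% the YY1 core AAGATGGC, 10.7% the NRF1 core GCATGCGC and 9.33% the E-box CACGTG, each as an exact match on either strand. Among all 32851 promoters of the table the shares were 8.86%, 2.75%, 2.71% and 7.15%, and among the 8368 promoters of genes averaging at least 10 CPM 21.9%, 5.53%, 6.20% and 10.7%. At least one of the first 3 cores stood in 38 of the 75 member promoters (50.7%), against 13.3% of all promoters and 30.6% of those of the expressed genes. The 4 sequences below run from 100 bases before to 30 bases from the start and were chosen for the largest fold change (Mrps27), the highest level per length (Mrpl33), the largest spread among Ag libraries (Mrps22) and the neighbouring ETS and YY1 cores (Mrps18a). Capitals mark the cores. The choice was made after values were seen, since no member met the rule fixed for it.
Mrps27 (chr13:99344686-99344815, plus strand): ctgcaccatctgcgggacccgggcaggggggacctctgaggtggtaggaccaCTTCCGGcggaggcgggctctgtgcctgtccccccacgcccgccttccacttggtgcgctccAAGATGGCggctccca
Mrpl33 (chr5:31613851-31613980, plus strand): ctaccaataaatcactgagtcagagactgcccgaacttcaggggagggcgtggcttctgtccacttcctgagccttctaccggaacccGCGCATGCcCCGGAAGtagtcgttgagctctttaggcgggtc
Mrps22 (chr9:98601650-98601779, minus strand): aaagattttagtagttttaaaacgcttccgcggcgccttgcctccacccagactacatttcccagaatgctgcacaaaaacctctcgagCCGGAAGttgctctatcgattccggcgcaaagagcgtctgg
Mrps18a (chr17:46110904-46111033, plus strand): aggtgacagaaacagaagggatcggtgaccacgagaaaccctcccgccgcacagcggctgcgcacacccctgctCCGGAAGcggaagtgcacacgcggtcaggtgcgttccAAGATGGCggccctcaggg
In Mrps27 the ETS core (here on the opposite strand) starts 48 bases before the start and the YY1 core lies 14 bases past it. In Mrpl33 the NRF1 core starts 12 bases and the ETS core 3 bases before the start. In Mrps22 the ETS core starts 11 bases before it. In Mrps18a the ETS core starts 26 bases before and the YY1 core lies 11 bases past the start. Over the 69 members with a promoter, the median log2 fold change was 0.23 with the ETS core and 0.31 without, 0.32 with the YY1 core and 0.26 without, and 0.27 with the NRF1 core and 0.28 without. A match of letters is not evidence of binding, and no binding was measured here.

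All 78 members were expressed, averaging at least 10 CPM, and all entered the test. Per transcript length (TPM, transcripts scaled to a fixed sum per library), the most abundant were Mrpl33, a small protein of the large subunit, at 495 TPM over the 10 libraries, Mrpl42 at 370 TPM and Mrpl18, which belongs to the central protuberance, at 349 TPM. The least abundant were Mrpl47 at 10.03 TPM, Mrps25 at 12.4 TPM and Mrps35 at 19.0 TPM. The 78 genes together took 0.461, 0.711, 0.527, 0.433 and 0.820 percent of all counts in Ag replicates 1 to 5 and 0.634, 0.627, 0.618, 0.679 and 0.622 percent in Ag+Costim replicates 1 to 5. The group means were 0.590 ± 0.168% (SD, n = 5) and 0.636 ± 0.0248% (SD, n = 5), and the whole Ag+Costim range lay inside that of Ag.

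To ask whether costimulation changed the mitochondrial ribosomal protein genes, each gene was compared between the 5 Ag and 5 Ag+Costim libraries with edgeR. No member passed at an adjusted p of 0.05, and neither did any other of the 24262 genes tested (0% called). By unadjusted p under 0.05, 2 members were reached, Mrps2 and Mrps27, both higher in Ag+Costim, which is 2 of 78 beside 7.89% of all genes tested in that direction and 20.3% of the genes averaging at least 10 CPM. DESeq2 called 0 members, with 1.57% of all genes called higher. The members' median log2 fold change (Ag+Costim over Ag) was 0.28, with single genes from -0.02 (Mrpl48) to 0.70 (Mrps27) and 76 of 78 above 0. That median lay near the 0.24 of the 8620 genes averaging at least 10 CPM (the expressed genes), of which 6516 were above 0. All genes tested had a median of -0.32. On the CPM scale not one member had all Ag+Costim libraries above all Ag libraries, where 4.48% of all genes tested and 11.3% of the expressed genes did, and not one had them all below, where 1.13% of all genes did. On the TPM scale 2 members, Mrps2 and Mrps27, had them all above, beside 12.8% of the expressed genes, and 0 had them all below. The size of the median rested on the scaling: it was 0.17 by DESeq2's size factors, 0.11 by total counts and 0.08 by the upper quartile, the number of members above 0 falling to 70, 57 and 53. On the same scalings the expressed genes had medians of 0.12, 0.01 and 0.02, with 5447, 4358 and 4494 of the 8620 above 0.

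**Figure D1:**
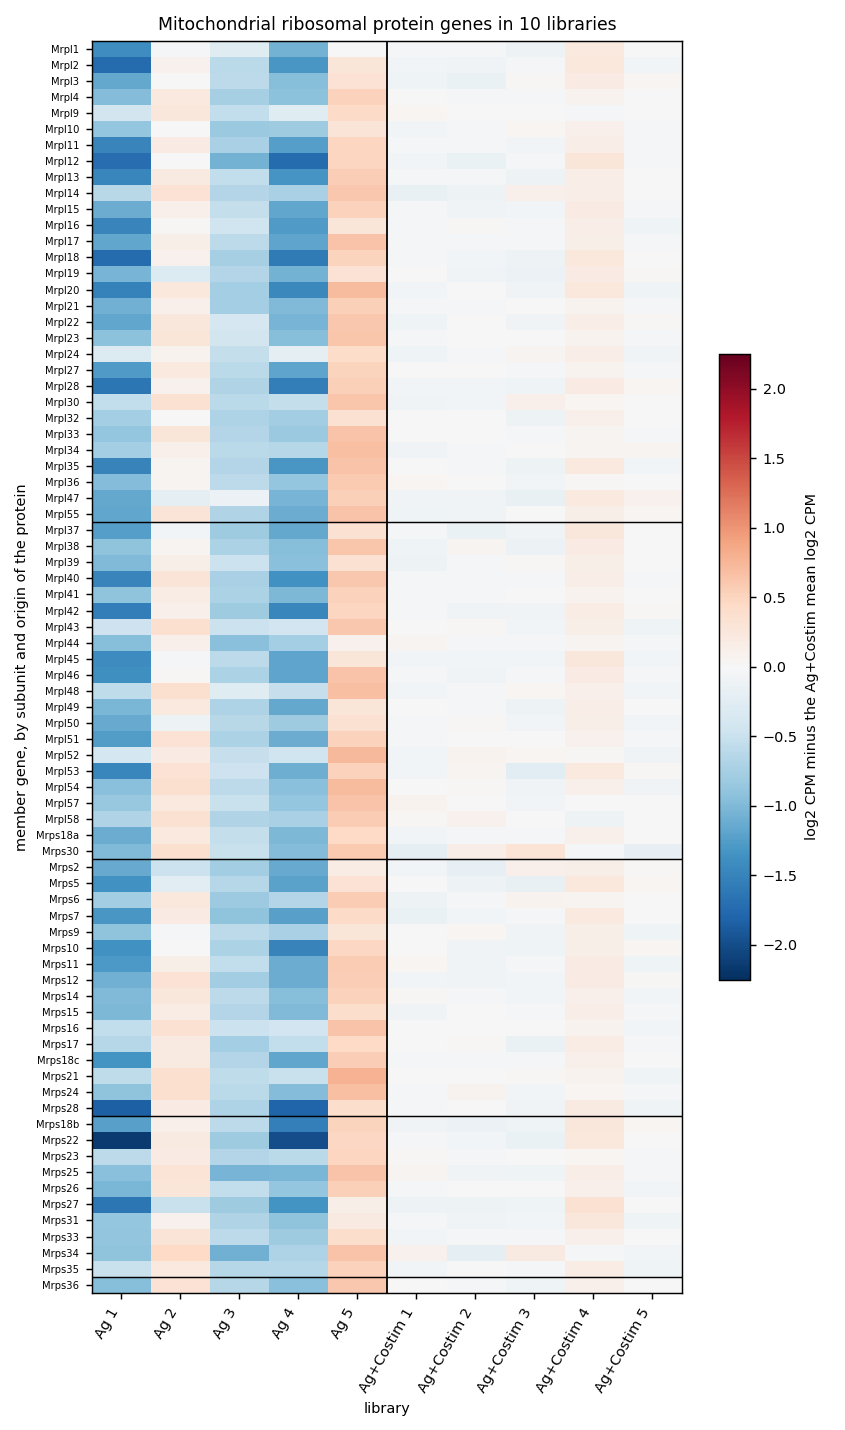
Level of each of the 78 genes (rows, grouped by subunit and origin of the protein) in the 10 libraries (columns), as log2 CPM minus the gene's mean log2 CPM in Ag+Costim. Ag 1, 3 and 4 are below the Ag+Costim libraries (blue) for nearly every gene, Ag 5 is above them (red) in 75 of 78, and the 5 Ag+Costim columns differ little.

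The member genes shared a split within Ag. The counts and coefficients of variation that follow are in TMM-scaled CPM, with scaling factors of 0.828 to 1.40 in Ag and 0.890 to 0.932 in Ag+Costim, and their size depends on that scaling. Ag replicates 1 and 4 lay below every Ag+Costim library in 78 of 78 members, against 61.1% of the expressed genes, and Ag replicate 3 in 77 of 78, against 79.1%. In the other direction, Ag replicate 5 lay above every Ag+Costim library in 75 of 78 members, against 37.0% of the expressed genes, and Ag replicate 2 in 47 of 78, against 28.2%. As a result the range of Ag+Costim lay wholly inside that of Ag in 75 of 78 members, against 55.2% of the expressed genes. The ribosomal proteins of the cytosol shared much of this split: the range of Ag+Costim lay inside that of Ag in 87 of the 90 that were tested, Ag replicate 5 above every Ag+Costim library in 86, Ag replicate 2 in 79, and Ag replicates 1, 3 and 4 below every one in 59, 86 and 68. Ag replicate 5 was the highest Ag library in 77 members and replicate 2 in the other (Mrpl44), whereas the lowest was replicate 1 in 49, replicate 4 in 19 and replicate 3 in 10. The median coefficient of variation (SD over mean) across Ag libraries was 0.496 for members, from 0.267 (Mrpl24) to 0.734 (Mrps22), 0.372 for cytosolic ribosomal proteins and 0.322 for expressed genes. Across Ag+Costim libraries it was 0.0646 for members and 0.0854 for expressed genes. These libraries are bulk samples, in which fewer cells of a type and less RNA per cell cannot be told apart.

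The sum of the members followed the same order. It was 3305, 7819.6, 4414, 3466 and 9908 CPM in Ag replicates 1 to 5 and 6797, 6775, 6755, 7630.0 and 6826 CPM in Ag+Costim replicates 1 to 5, or 3.00-fold from lowest to highest in Ag and 1.13-fold in Ag+Costim. Other measures moved with it over the Ag libraries. The cell cycle list (22 genes, Mki67 and Top2a among them) summed to 1426, 11033, 6796, 1489 and 12344 CPM in Ag replicates 1 to 5 and to 10868 to 13622 CPM in Ag+Costim. The B cell list summed to 952, 642, 845, 1141 and 752 CPM in Ag replicates 1 to 5, highest in the 3 libraries in which the members were low. Those sums were mostly Ighm, which itself was lowest in Ag replicate 3 (601 CPM). The B cell marker Ms4a1 differed more, at 17.2, 0.239, 54.8, 20.9 and 0.277 CPM in Ag and 1.63 to 5.24 CPM in Ag+Costim. Cd79a stood at 23.1, 93.1 and 32.5 CPM in Ag replicates 1, 3 and 4 and at most 2.44 CPM in Ag replicates 2 and 5. The erythroid list summed to 125, 30.5, 1099, 43.5 and 14.7 CPM in Ag replicates 1 to 5, again highest in those 3. Those 3 libraries had 40441 to 51778 genes with a count, against 20714 and 21779 in the other 2. The part of dividing cells, of B cells, of erythroid cells and of library complexity in the split was not tested. Ag replicates 1, 3 and 4 were then left out, a choice made after seeing the data. They are also the libraries in which the members were low, so the direction of this comparison follows from the choice and its counts are given as a description only: 75 of 78 members were lower in Ag+Costim, the median was -0.32 with 0.05 for the expressed genes (4757 of 8620 above 0), and edgeR called 29 members lower and 0 higher (3.32% of all genes called lower). On these libraries 46 members were lower without overlap, beside 10.9% of all genes. Without Ag replicate 5 alone the median was 0.55, 0 members were called by edgeR, and 6 members (Mrpl19, Mrpl47, Mrpl50, Mrps2, Mrps27 and Mrps5) were higher without overlap, beside 7.01% of all genes. A weighted limma voom fit, which gave Ag replicates 2 and 5 the least weight (0.0986 and 0.0656, against 0.508 to 2.00 for the other Ag libraries), called 77 of 78 members higher, with a median log2 fold change of 0.93. That fit called 25.7% of all genes and 57.6% of the expressed genes higher.

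**Figure D2:**
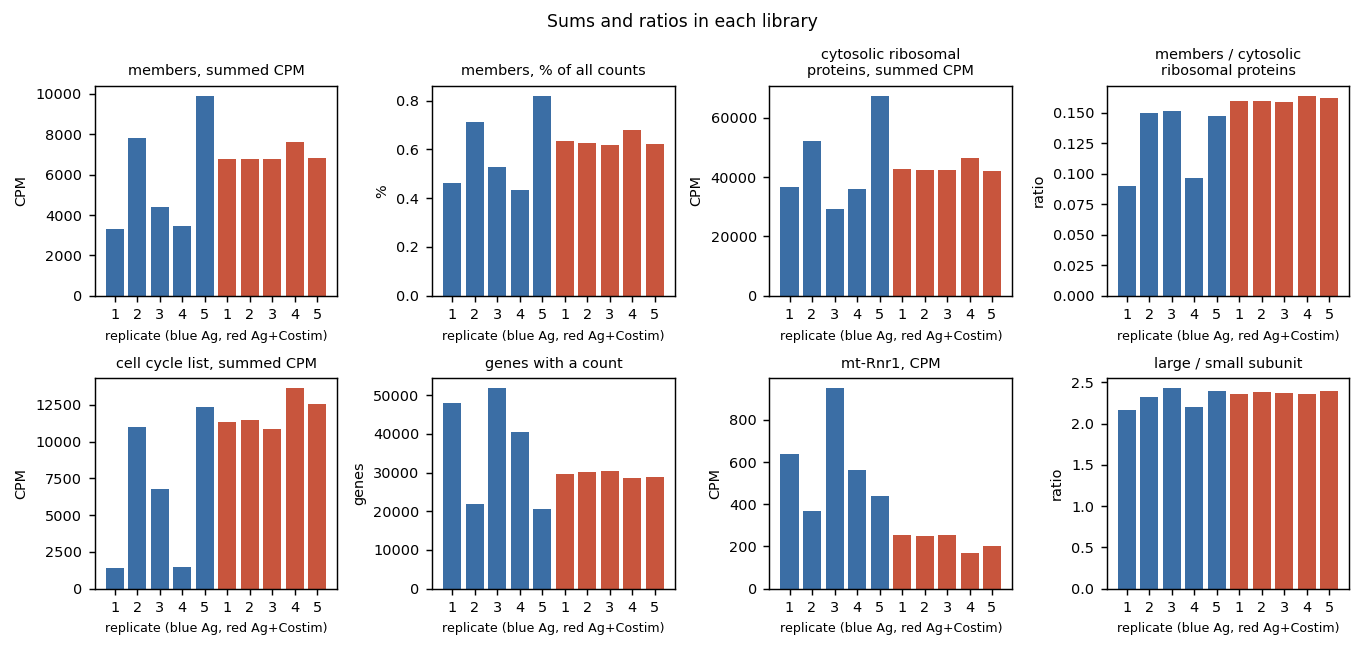
Sums, ratios, 1 single gene and the number of genes with a count in each library (bars; blue, Ag replicates 1 to 5; red, Ag+Costim replicates 1 to 5), in CPM, percent of counts, genes or as a ratio, on axes from 0. The members and the cell cycle list are low in Ag 1 and 4, genes with a count are most numerous in Ag 1, 3 and 4, and the ratio of members to cytosolic ribosomal proteins is below every red bar in every blue one.

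Among the members with the lowest p, Mrps27, a small subunit protein with pentatricopeptide repeats, had the largest difference. It stood at 14.8, 32.5, 26.4, 18.1 and 50.2 CPM in Ag replicates 1 to 5 and 42.0, 42.1, 42.6, 58.2 and 45.8 CPM in Ag+Costim replicates 1 to 5. Only Ag replicate 5 reached into the Ag+Costim range, and the log2 fold change was 0.70 ± 0.30 (SE), adjusted p = 0.266 by edgeR. Mrps2, a small subunit protein with a bacterial homologue, stood at 21.9, 34.1, 27.9, 22.0 and 53.7 CPM in Ag and 45.7, 42.2, 51.6, 52.4 and 48.5 CPM in Ag+Costim. Its Ag replicate 5 was the highest of all 10 libraries in CPM and the other 4 were below all of Ag+Costim, with a log2 fold change of 0.59 ± 0.24 (SE), adjusted p = 0.260 by edgeR. In TPM the groups did not overlap in these 2 genes. The highest Ag and lowest Ag+Costim values were 34.0 and 35.7 TPM for Mrps27 and 29.4 and 29.9 TPM for Mrps2. For Mrpl19 the values were 32.0, 53.9, 41.8, 31.6 and 83.4 CPM in Ag and 66.5, 62.6, 60.7, 75.7 and 67.4 CPM in Ag+Costim, again with Ag replicate 5 alone above the Ag+Costim minimum (0.46 ± 0.26 (SE), adjusted p = 0.311, edgeR). Mrpl44, which has a fold like that of the RNA-cutting enzyme RNase III, had 28.0, 59.1, 28.5, 32.2 and 58.6 CPM in Ag and 57.2, 52.9, 53.3, 57.0 and 53.3 CPM in Ag+Costim. Here Ag replicates 2 and 5 were nearly equal and lay just above Ag+Costim, and the log2 fold change did not pass (0.41 ± 0.23 (SE), adjusted p = 0.319, edgeR).

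**Figure D3:**
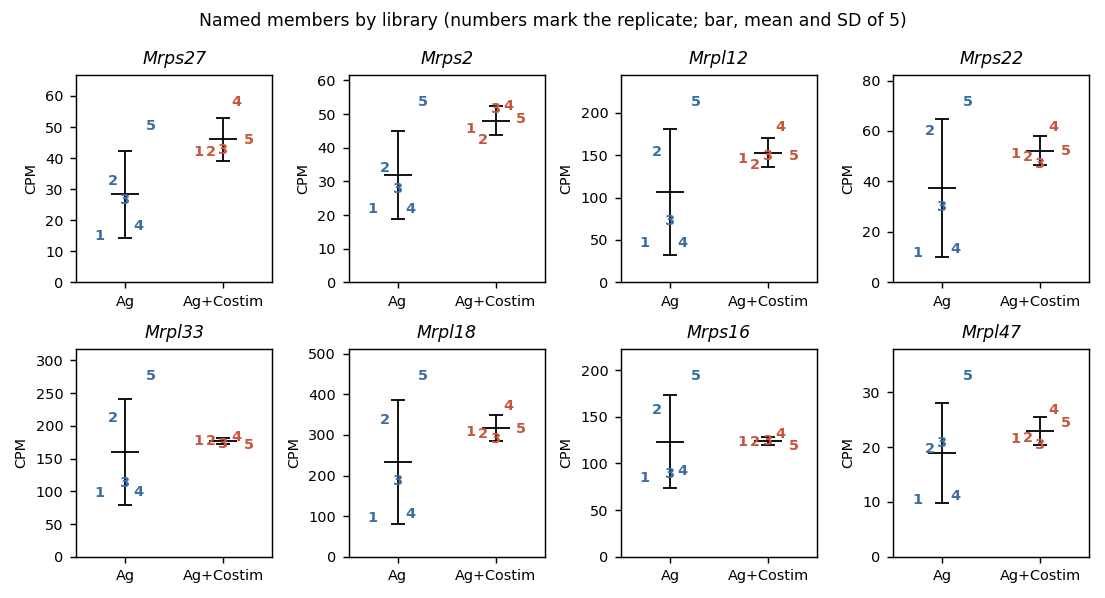
CPM of 8 named members in each library (digits, the replicate number, blue for Ag and red for Ag+Costim), with the mean and SD of 5 libraries in black; each axis starts at 0. In Mrps22 the Ag libraries run from 11.8 to 71.6 CPM while Ag+Costim stays between 47.0 and 61.6 CPM, and in all 8 genes the groups overlap.

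In the large subunit, Mrpl12, Mrpl10 and Mrpl11 build the stalk to which translation factors bind. Mrpl12, which has also been tied to the mitochondrial RNA polymerase, had 46.6, 154, 72.7, 45.9 and 213 CPM in Ag and 145, 138, 149, 183 and 149 CPM in Ag+Costim, the second largest spread within Ag. Mrpl11 had 21.9, 69.8, 37.1, 26.2 and 86.6 CPM and 60.6, 60.2, 58.7, 68.5 and 60.4 CPM, and Mrpl10 58.3, 107, 59.8, 61.3 and 131 CPM and 103, 103, 111, 116 and 103 CPM, in the same order of libraries. In all 3, Ag replicates 1, 3 and 4 were below and Ag replicate 5 above every Ag+Costim library in CPM. In TPM, Ag replicate 5 stood at 198, 84.4 and 93.5 (Mrpl12, Mrpl11 and Mrpl10), below the highest Ag+Costim values of 209, 85.4 and 102. The log2 fold changes of 0.52, 0.35 and 0.36 had adjusted p values of 0.429, 0.528 and 0.364 by edgeR. Mrpl3, near the site of peptide bond formation, stood at 44.6, 99.3, 65.6, 51.1 and 124 CPM in Ag and 92.2, 89.7, 100.2, 113 and 102 CPM in Ag+Costim. Mrpl45, at the tunnel exit, where the ribosome is held to the inner membrane, had 34.5, 89.9, 60.9, 40.4 and 111 CPM and 88.9, 88.0, 88.5, 109 and 88.0 CPM. For Mrpl58, a hydrolase that frees the peptide from stalled ribosomes, the values were 67.8, 137, 67.8, 65.6 and 162 CPM and 111, 115, 109, 101 and 107 CPM. Mrpl3 and Mrpl45 had log2 fold changes of 0.37 and 0.46 and Mrpl58 of 0.12 (edgeR, adjusted p = 0.398, 0.358 and 0.795), and in each Ag replicate 5 was the highest of all libraries in CPM. In TPM, Ag replicate 5 stood at 85.4 (Mrpl3) and 55.9 (Mrpl45), below the highest Ag+Costim values of 86.1 and 67.5. For Mrpl58 the highest TPM was 185, in Ag replicate 2.

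The members with the highest and lowest level per length behaved alike. Mrpl33 had 97.0, 213, 112, 99.2 and 276 CPM in Ag and 177, 177, 173, 184 and 171 CPM in Ag+Costim, Ag+Costim spanning less than the gap between any low and any high Ag library. Mrpl18 had 94.8, 338, 187, 105 and 445 CPM and 306, 303, 290.4, 371 and 315 CPM, and Mrpl42 60.2, 193, 102, 64.5 and 249 CPM and 173, 168, 168, 200.1 and 180.1 CPM. Mrpl47, the least abundant, had 10.3, 19.7, 20.8, 11.1 and 33.0 CPM and 21.5, 21.6, 20.4, 26.7 and 24.4 CPM, and here Ag replicates 2 and 3 both lay near the Ag+Costim minimum. The adjusted p values were 0.762, 0.492, 0.491 and 0.557 by edgeR. For the 2 large subunit proteins with small subunit symbols, Mrps30 ran from 32.7 to 97.0 CPM in Ag and from 55.5 to 80.2 CPM in Ag+Costim, and Mrps18a from 37.1 to 109.6 CPM and from 77.2 to 86.8 CPM. Their log2 fold changes were 0.17 and 0.26, with adjusted p values of 0.747 and 0.569 by edgeR.

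In the small subunit, Mrps12, a protein of the decoding centre, had 36.2, 96.6, 44.9, 35.3 and 113 CPM in Ag and 73.8, 72.5, 73.2, 87.7 and 78.2 CPM in Ag+Costim. Mrps5, whose bacterial counterpart bears on the accuracy of decoding, had 30.2, 64.9, 49.9, 33.6 and 96.9 CPM and 77.6, 71.7, 69.0, 91.8 and 80.1 CPM. Mrps7, of the subunit head, had 45.6, 128, 60.4, 48.4 and 152 CPM and 102, 108, 111, 132 and 113 CPM. Their log2 fold changes were 0.24, 0.50 and 0.38 (edgeR, adjusted p = 0.645, 0.321 and 0.479), with Ag replicate 5 above every Ag+Costim library in each in CPM. In TPM this held for Mrps12 only. There Ag replicate 5 stood at 30.2 (Mrps5) and 95.2 (Mrps7), below the highest Ag+Costim values of 34.9 and 102. Mrps16 stood nearly level between the group means, at 84.8, 158, 88.2, 91.9 and 194 CPM in Ag and 123, 123, 124, 131 and 119 CPM in Ag+Costim. With means of 123 ± 49.6 and 124 ± 4.43 CPM (SD, n = 5) its log2 fold change of 0.01 turned negative in 9 of 18 alternatives. Inherited defects of MRPS16, MRPS22 and MRPS34 are known causes of mitochondrial disease.

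Mrps22, specific to mitochondria, showed the widest split of all members. It had 11.8, 60.1, 29.8, 13.1 and 71.6 CPM in Ag and 50.8, 49.6, 47.0, 61.6 and 52.2 CPM in Ag+Costim, a 6.09-fold range within Ag. Ag replicates 2 and 5 lay above or within Ag+Costim and the other 3 well below it (log2 fold change 0.49 ± 0.46 (SE), adjusted p = 0.511, edgeR). Mrps34 had 35.5, 89.8, 31.2, 40.7 and 103 CPM and 71.0, 57.7, 76.4, 64.2 and 63.2 CPM, Mrps25 24.3 to 78.3 CPM in Ag and 47.1 to 56.0 CPM in Ag+Costim, and Mrps35 31.8 to 71.2 CPM and 46.8 to 55.7 CPM. Their log2 fold changes were 0.15, 0.22 and 0.13, with adjusted p values of 0.786, 0.678 and 0.741 by edgeR. Mrps36, of neither subunit, kept to the same order, with 37.7, 91.9, 47.0, 38.2 and 112 CPM in Ag and 73.0, 72.4, 68.7, 79.6 and 73.8 CPM in Ag+Costim (0.17 ± 0.31 (SE), adjusted p = 0.737, edgeR). In all, 42 members overlap another annotated gene, and the libraries do not mark strand, so reads in shared exons cannot be assigned to one of them. For Mrps34 these are Nme3 on the same strand and Mapk8ip3 on the opposite strand, and for Mrps27 a gene on the opposite strand.

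The subunits and the 2 kinds of protein moved together. Median log2 fold changes were 0.29 for the 30 large subunit proteins with a bacterial homologue, 0.26 for the 21 specific to mitochondria, 0.29 for the 16 small subunit proteins with a homologue and 0.22 for the 10 without. Their median coefficients of variation in Ag were 0.507, 0.488, 0.492 and 0.493. The summed large subunit stood to the summed small subunit as 2.17, 2.32, 2.43, 2.20 and 2.40 in Ag replicates 1 to 5 and as 2.36, 2.39, 2.37, 2.37 and 2.39 in Ag+Costim replicates 1 to 5. That ratio differed 1.12-fold at most within Ag while the sums themselves differed 3.09-fold and 2.80-fold, and the groups overlapped.

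**Figure D4:**
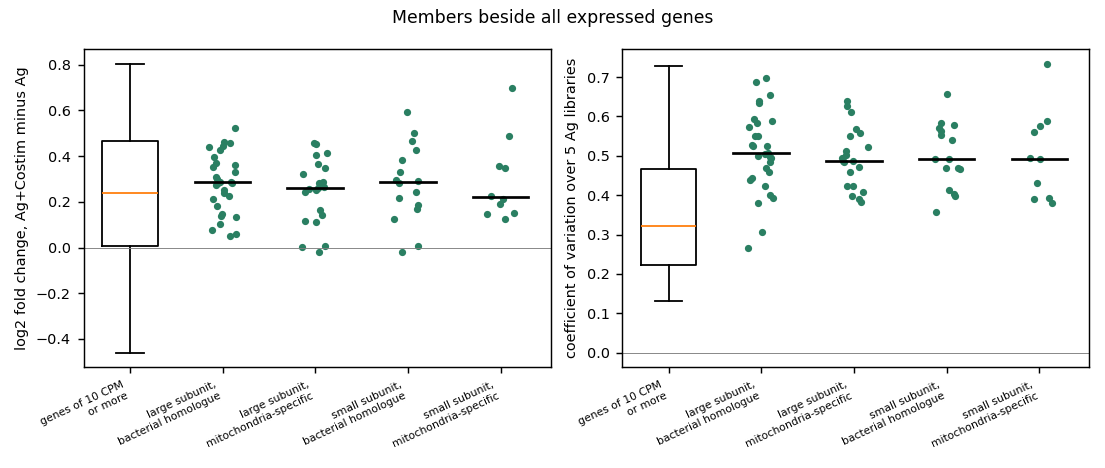
Log2 fold change (left) and coefficient of variation across the 5 Ag libraries (right) of members in each group of proteins (points; bar, median) beside the 8620 expressed genes (box, quartiles and median; whiskers, 5th to 95th percentile). The members' medians lie at 0.22 to 0.29 on the left, near the 0.24 of the expressed genes, and at 0.488 to 0.507 on the right, above their 0.322.

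The rest of the mitochondrial translation apparatus was looked up in fixed lists. None of its genes passed edgeR's adjusted threshold. Of 5 mitoribosomal proteins with other symbols (Dap3, Ptcd3, Chchd1, Aurkaip1 and Gadd45gip1), 5 had a log2 fold change above 0, beside 6516 of the 8620 expressed genes. Of these 5, 0 had an unadjusted p under 0.05, and their median was 0.29. Of 16 translation factors, 4 had such a p, all higher, beside the 20.3% of expressed genes, and the median was 0.29. They were Lrpprc, which stabilises mitochondrial messages, the elongation factor Gfm1, the release factor family member Mtrf1 and Gatb, part of the enzyme that makes glutaminyl-tRNA. Lrpprc was higher in Ag+Costim without overlap, with 37.5, 80.8, 64.0, 43.4 and 77.2 CPM in Ag and 90.6, 95.9, 92.9, 135 and 110.1 CPM in Ag+Costim, a log2 fold change of 0.79 ± 0.23 (SE) and an adjusted p of 0.204 by edgeR. Of 27 factors of ribosome assembly and RNA modification, 1 had an unadjusted p under 0.05 (the helicase Dhx30, higher without overlap, 87.1, 101, 83.3, 88.7 and 82.0 CPM in Ag and 111, 109, 118, 115 and 128 CPM in Ag+Costim, a log2 fold change of 0.39 ± 0.12 (SE) and an adjusted p of 0.204 by edgeR), with a median of 0.22. Of 5 genes in the list of mitochondrial transcription, 4 (Tfb2m, Tfam, Polrmt and Twnk) had one, all higher, with a median of 0.46. Twnk is the helicase of mitochondrial DNA rather than a transcription factor, and it overlaps the member Mrpl43 on the opposite strand. DESeq2 called Lrpprc, Mtrf1 and Dhx30 higher (adjusted p = 0.0277, 0.0407 and 0.0413), beside 713 of the 8620 expressed genes. Higher without overlap were 1 of the 16 translation factors and 1 of the 27 assembly factors, beside 11.3% of the expressed genes. The median coefficients of variation in Ag were 0.343, 0.368 and 0.301 for the lists of translation factors, of assembly and of transcription, below the 0.496 of the members.

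The 2 ribosomal RNAs of the mitochondrial ribosome had lower means in Ag+Costim. mt-Rnr1 had 638, 368, 949, 564 and 437 CPM in Ag and 252, 249, 253, 169.8 and 201 CPM in Ag+Costim, a log2 fold change of -1.39 ± 0.26 (SE) and an adjusted p of 0.134 by edgeR, every Ag+Costim library lying below every Ag library. mt-Rnr2 had 3365, 2264, 4353, 3901 and 2561 CPM in Ag and 2518, 2356, 2568, 1864 and 2259 CPM in Ag+Costim, a log2 fold change of -0.51 ± 0.21 (SE) and an adjusted p of 0.265 by edgeR, and there the groups overlapped. DESeq2 called both lower (adjusted p = 1.22e-05 and 0.0405), beside 215 of the 8620 expressed genes. The libraries were made from RNA primed at poly(A) tails, which mitochondrial ribosomal RNAs carry only in short form, so their level here depends on the priming. The summed members stood to the summed mitoribosomal RNAs as 0.826, 2.97, 0.832, 0.776 and 3.31 in Ag replicates 1 to 5 and as 2.45, 2.60, 2.39, 3.75 and 2.77 in Ag+Costim replicates 1 to 5, and the groups overlapped.

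Set against the ribosomal proteins of the cytosol, the members were higher in every Ag+Costim library. The summed members were 0.0897, 0.150, 0.151, 0.0966 and 0.147 of the summed 92 cytosolic ribosomal proteins in Ag replicates 1 to 5 and 0.160, 0.160, 0.159, 0.164 and 0.162 in Ag+Costim replicates 1 to 5. The groups did not overlap, with means of 0.127 ± 0.0310 and 0.161 ± 0.00210 (SD, n = 5), and this ratio within a library does not depend on the scaling between libraries. In TPM the ranges were 0.0637 to 0.108 and 0.114 to 0.119. The ratio was 1.27-fold higher in Ag+Costim with all libraries and 1.08-fold without Ag replicates 1, 3 and 4. Divided by the same sum, 22 members were higher without overlap and 0 lower, beside 15.8% of the expressed genes, Mrpl12, Mrpl18, Mrps2 and Mrps27 among them. The cytosolic ribosomal proteins themselves had a median log2 fold change of -0.04 and were highest in Ag replicate 5 as well, at 36823, 52079, 29174, 35883 and 67444 CPM in Ag replicates 1 to 5. The ratio was formed after the values had been seen and was not tested.

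To examine whether members changed in the transcripts they use, the transcript counts of 73 members with several expressed transcripts were tested with edgeR's diffSpliceDGE. One member, Mrpl3, passed (adjusted p = 0.00317), beside 0.297% of the 10441 genes tested. Its main coding transcript Mrpl3-201 held 23.3, 60.6, 69.8, 14.8 and 27.2 percent of the gene's counts in Ag replicates 1 to 5 and 63.4, 73.6, 39.6, 47.4 and 31.5 percent in Ag+Costim. Mrpl3-204, annotated as a target of nonsense-mediated decay, held 61.2, 36.5, 18.2, 67.6 and 62.9 percent in Ag and 27.2, 17.96, 50.1, 44.5 and 59.2 percent in Ag+Costim. For both, the libraries of each group were spread widely and the groups overlapped, and neither transcript passed by itself (edgeR, unadjusted p = 0.595 and 0.635). The p of the gene came from Mrpl3-209, a processed transcript at 0 in all 5 Ag libraries, where 0 of 119082 estimated counts allows a share of up to 0.00252% by counting error, and at 1.43, 0.183, 0.236, 0.299 and 0.156 percent in Ag+Costim (edgeR, adjusted p = 0.00219 among transcripts). The mean share of Mrpl3-209 moved by only 0.461 percentage points. The share that moved by over 10 points was that of Mrpl3-201, so no single transcript met both conditions of the call. The call was lost in 7 of 13 alternatives: with limma's diffSplice (adjusted p = 0.120), with a replicate block (adjusted p = 0.0617, edgeR) and, as the mean share then moved by less than the 10 percentage points required, without Ag replicate 1, 4 or 5 or Ag+Costim replicate 1 or 2 (8.02, 5.89, 8.99, 8.90 and 6.36 points, against 11.99 with all libraries). The next members by p were Mrpl35 and Mrpl47, with adjusted p values of 0.393 and 0.776 by edgeR and mean shares of the leading transcript of 99.9% and 98.4% (Mrpl35-201) and of 98.3% and 99.5% (Mrpl47-201) in Ag and Ag+Costim.

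**Figure D5:**
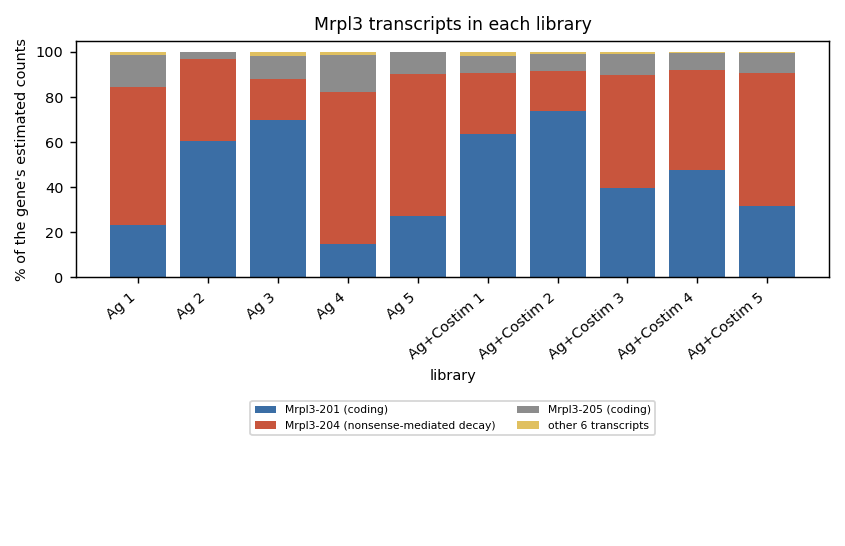
Share of Mrpl3's estimated counts (percent, stacked to 100) assigned to each transcript in the 10 libraries. Mrpl3-201 runs from 14.8 to 69.8% in Ag and from 31.5 to 73.6% in Ag+Costim. The spread within each group is far wider than the difference between the group means (39.1% and 51.1%).

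Retained-intron transcripts took 3.62 ± 1.12% of the members' counts in Ag and 2.68 ± 0.143% with costimulation (SD over 5 libraries). The same share over all protein-coding genes was 4.03 ± 1.48% and 2.89 ± 0.249%. Within Ag it was 4.75, 2.69, 3.75, 4.65 and 2.28 percent in replicates 1 to 5 for the members, highest in the 3 libraries in which the members themselves were low.

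The deposited PSI values (percent spliced in, given as a fraction, 1 pooled value per group without an error) held 391 events in 72 member genes. Of these, 9 events in 5 genes differed by over 0.1 between groups, or 2.30%, beside 5.87% of all events. Not one of the 251 core exon events did, the largest difference there being 0.0546. The 9 lay at first and last exons and at donor sites. Mrps36 had the largest difference, its first exon start at chr13:100744530-100744657 (minus strand, mm10) going from 0.720 in Ag to 0.920 in Ag+Costim. In the last exon of Mrpl15, at chr1:4773211-4774516 (minus strand), PSI was 0.521 in Ag and 0.361 in Ag+Costim. Mrps17 had a first exon at chr5:129715516-129715549 with 0.858 and 0.992, and stretches behind 2 donor sites with 0.691 and 0.587 and with 0.626 and 0.515. For Mrps10 and Mrpl2 the values at last exons were 0.946 and 0.805, and 0.744 and 0.869. With 1 value a group the PSI differences themselves have no replicate check. Transcript shares, a different measure, were at hand per library. The transcripts starting at the first exons named did not rise with PSI. Their mean shares in Ag and Ag+Costim were 21.5% and 20.3% (Mrps36-202) and 19.97% and 18.2% (Mrps17-204). Those ending at the last exons of Mrpl15 and Mrpl2 moved with PSI, at 76.9% and 72.4% (Mrpl15-206) and 55.4% and 62.5% (Mrpl2-202). The one ending at the last exon of Mrps10 moved against PSI, at 0.505% and 1.49% (Mrps10-201). In each of these transcripts the groups overlapped.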

How the data were processed

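RNA of 10 libraries, 5 Ag and 5 Ag+Costim, was analysed from tables deposited by the authors. They hold estimated counts per gene and per transcript that the authors made with HISAT2 2.1.0, SAMtools 1.9 and StringTie 2.1.0 on mm10 (GENCODE annotation), and PSI as a fraction, pooled to 1 value per group by the authors with Whippet. Kits were SMART-Seq v4 and Nextera XT, which do not mark strand. Where labels do not say that libraries came from separate animals, p-values, SD and SE measure only the spread between these samples. The upper limit given for a share at 0 covers counting error only. Entries without a gene identifier held at most 0.308% of a library's counts and were left out.

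Counts were rounded and tested with edgeR 4.0.16 (quasi-likelihood, TMM scaling, filterByExpr, robust; R 4.3.3) over all 24262 genes passing the filter, with Benjamini-Hochberg adjustment at 0.05. DESeq2 1.42.0 and limma 3.58.1 (voom with sample weights) were alternatives, as were other scalings, no filter, a replicate block and leaving out each library. Transcript usage was called by diffSpliceDGE at 0.05 for the gene, with the mean share of any of its transcripts moved by over 0.1. The step was tested on simulated data with a dispersion of 0.1 in both groups. The data had 1.49 in Ag and 0.341 in Ag+Costim, so that check does not show how the tests behave at this larger, unequal spread. CPM were TMM-scaled, TPM used transcript lengths. Named members were those without overlap, the 4 of lowest p, the 3 highest and 3 lowest in TPM, the 2 of largest spread in Ag and 16 of known role. One marker of the B cell list is not reported here and was left out of its sum. The members, the lists and the motifs were chosen with earlier results of these data known.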

Additional observations from a re-analysis of the deposited data

Results flagged for a closer look

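Within Ag+Costim, replicate 4 stood apart by the gap to its nearest neighbour in 6 of the 58 groups of 5 libraries examined. These groups cover the 25 named members and 4 summed measures. For a single group chance gives about 1 in 20, but the groups are not independent, since the members varied together over the libraries. All 6 flags fell on this 1 library, so their number is a description only. It was the highest Ag+Costim library in Mrpl11 (68.5 CPM), Mrpl12 (183 CPM), Mrpl45 (109 CPM) and Mrps27 (58.2 CPM). The summed members (7630.0 CPM) and their share of all counts (0.679%) were also highest there. Ag+Costim replicate 4 was the highest Ag+Costim library in 67 of 78 members, against 36.4% of the expressed genes and 76 of 90 cytosolic ribosomal proteins, and it had the highest sum of the cell cycle list (13622 CPM). Without it the members' median log2 fold change was 0.23, with 0.28 over all 10 libraries. The 5 Ag libraries gave no such gap, since they spread over the whole range.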

How the results depend on the processing

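The count of members called by edgeR was 0 under each other scaling, without a filter, with a replicate block, without any single library and by DESeq2, while the weighted limma voom fit called 77 and the fit without Ag replicates 1, 3 and 4, chosen after seeing the data, called 29. In CPM, members higher without overlap numbered 0 to 6 without single libraries (6 without Ag replicate 5), and members lower without overlap numbered 46 without Ag replicates 1, 3 and 4 and 0 otherwise. On the TPM scale with all libraries, 2 members were higher without overlap and 0 lower. The members' median log2 fold change was 0.08 to 0.93 over the other fits of all 10 or 9 libraries (0.59 without a filter and 0.12 to 0.55 without single libraries), and without Ag replicates 1, 3 and 4, the libraries in which the members were low, it was -0.32. On those libraries the log2 fold changes of 23 of 25 named members reversed, to -0.12 (Mrpl10), -0.31 (Mrpl11), -0.22 (Mrpl12), -0.27 (Mrpl18), -0.0049 (Mrpl19), -0.13 (Mrpl3), -0.44 (Mrpl33), -0.28 (Mrpl42), -0.072 (Mrpl44), -0.085 (Mrpl45), -0.16 (Mrpl47), -0.43 (Mrpl58), -0.41 (Mrps12), -0.47 (Mrps16), -0.30 (Mrps18a), -0.30 (Mrps22), -0.44 (Mrps25), -0.43 (Mrps30), -0.50 (Mrps34), -0.34 (Mrps35), -0.44 (Mrps36), -0.013 (Mrps5) and -0.27 (Mrps7). With total counts, Mrpl33, Mrpl58, Mrps16, Mrps34 and Mrps35 reversed to -0.015, -0.057, -0.18, -0.0011 and -0.068. With the upper quartile, Mrpl33, Mrpl58, Mrps16, Mrps30, Mrps34, Mrps35 and Mrps36 reversed to -0.045, -0.080, -0.19, -0.026, -0.035, -0.077 and -0.019. With DESeq2 and with its size factors, Mrps16 reversed to -0.092 and -0.097. Without single libraries Mrps16 ran from -0.094 to 0.25 and Mrps34 from -0.013 to 0.44. The cause of these reversals was not tested. The Mrpl3 transcript call was lost with limma's diffSplice (0 members) and with the replicate block (0 members) and without Ag replicates 1, 4 or 5 or Ag+Costim replicates 1 or 2 (0 to 1 members over single libraries, the adjusted p staying at or under 0.0176 by edgeR). The difference in the share of counts was 0.0454 percentage points with all libraries and 0.00598 to 0.103 without single libraries. The ratio of members to cytosolic ribosomal proteins was 1.18-fold to 1.33-fold higher without single libraries.

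Libraries share replicate numbers across groups. The correlations of same-numbered deviations were -0.0997 to 0.113. They show no pairing by number, but cannot exclude one beside the large spread within Ag. With the replicate block edgeR called 0 members and the median was 0.42. The spread within Ag (CV 0.496 in TMM-scaled CPM) limits what 5 libraries could show.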
